A study of Caenorhabditis elegans with 12 samples.

Results

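LEM-2 contact along the genome was compared between met-2 set-25 double mutants and wild-type worms, using 8 of the 12 chromatin immunoprecipitation libraries of a study in early embryos of Caenorhabditis elegans. For each genotype there were 2 libraries of LEM-2 and 2 of input, made from chromatin without the antibody, and all 504 windows of 200 kb on the 6 chromosomes entered. The met-2 set-25 embryos came from strain GW638, with deletions of both genes, and the wild-type embryos from strain GW1. Both strains were grown in liquid culture at 20 °C with bacteria as food, and embryos were taken from gravid adults of large populations, in independent biological replicates. Each genotype was 1 strain, so strain and genotype cannot be told apart. The remaining 4 libraries, from the cec-4 mutant, lent their spread to the tests and are used for 1 further comparison.

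LEM-2 is a protein of the inner nuclear membrane, and DNA recovered with it marks chromatin near the nuclear envelope. The arms of worm autosomes are rich in repeats and in histone H3 methylated at lysine 9, while the centres are rich in genes that many cells use. MET-2 is a methyltransferase that gives the mono- and dimethylated forms of this lysine, and SET-25 gives the trimethylated form. In embryos that lack both enzymes this methylation is known to be lost, but it was not measured in these libraries. The windows are also too wide to show either deletion, so the genotype labels could not be checked from the counts.

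Depth ran from 10782721 to 12340446 counts over the 8 libraries. Per library, the count of the median window lay from 19479.5 to 24830.5, which gives a counting error of no more than 0.716% if every count was an independent fragment. Levels are log2 of LEM-2 over the input that has its genotype and replicate number. Each library was scaled to its own total, so rises and falls are relative and no absolute gain or loss was measured. Whether a lower level came from all cells of the embryos or from some of them cannot be told apart in bulk chromatin. Replicates differed by more than counting error on that condition, with a chi-square per degree of freedom of 19.4 for LEM-2 in met-2 set-25 and 33.3 for LEM-2 in wild-type. It was 73.9 for LEM-2 in cec-4, and 2.54, 4.60 and 9.07 for the inputs of met-2 set-25, wild-type and cec-4. The window tests used 1 estimate of spread per window for all 12 libraries, so these unlike spreads were pooled. Positions follow the windows as deposited, and the sources used here do not name their genome build.

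The arms lost relative LEM-2 contact in long stretches without losing all of it. In met-2 set-25, 399 of the 504 windows (79.2%) differed from wild-type: 150 (29.8%) had lower LEM-2 over input and 249 (49.4%) had higher, by edgeR's quasi-likelihood test at a Benjamini-Hochberg adjusted p under 0.05. Of the 150 lower windows, 92 were still enriched over input in met-2 set-25, 40 were neither enriched nor depleted and 18 were depleted. The higher windows behaved in the same manner from below, with 156 of the 249 still depleted in met-2 set-25, 55 neither and 38 enriched, 3 of which were enriched in wild-type too. Most changed windows thus stayed on their own side of the input. Enriched and depleted are relative states too, since LEM-2 and input libraries were each scaled to their own totals. Over the whole genome 189 windows (37.5%) were enriched and 200 (39.7%) depleted in met-2 set-25, against 204 (40.5%) and 264 (52.4%) in wild-type. Both met-2 set-25 libraries lay below both wild-type libraries in 176 windows (34.9%) and above both in 281 (55.8%).

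The split between higher and lower windows depended on the scaling between libraries. With TMM factors 183 windows were lower and 189 higher, and with DESeq2 size factors 195 were lower and 153 higher. All 150 lower windows were lower under both, and 189 and 153 of the 249 higher ones remained higher. The median window changed by 0.15 under library totals, by 0.06 under TMM factors and by 0.01 under DESeq2 size factors. Relative to it the median autosomal arm window changed by -0.40 and the median autosomal centre window by 0.14. These relative values are the same under any such scaling by construction, since a factor shifts all windows of a library alike.

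The spread of the window levels narrowed from both ends, as the plot of window levels shows. The SD over the 504 windows was 0.286 in met-2 set-25 and 0.487 in wild-type. Autosomal windows were divided into 5 groups of 83 by their level in 1 wild-type library, and the difference was then taken from the other wild-type library. Over the 4 pairings of libraries the lowest group lay higher in met-2 set-25 by 0.24 to 0.36 and the next by 0.24 to 0.33. The middle group differed by 0.01 to 0.04. Of the upper groups, one differed by -0.28 to -0.18 and the topmost by -0.35 to -0.28. Differences were thus near 0 in the middle group and larger in the groups on either side of it.

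**Figure D1:**
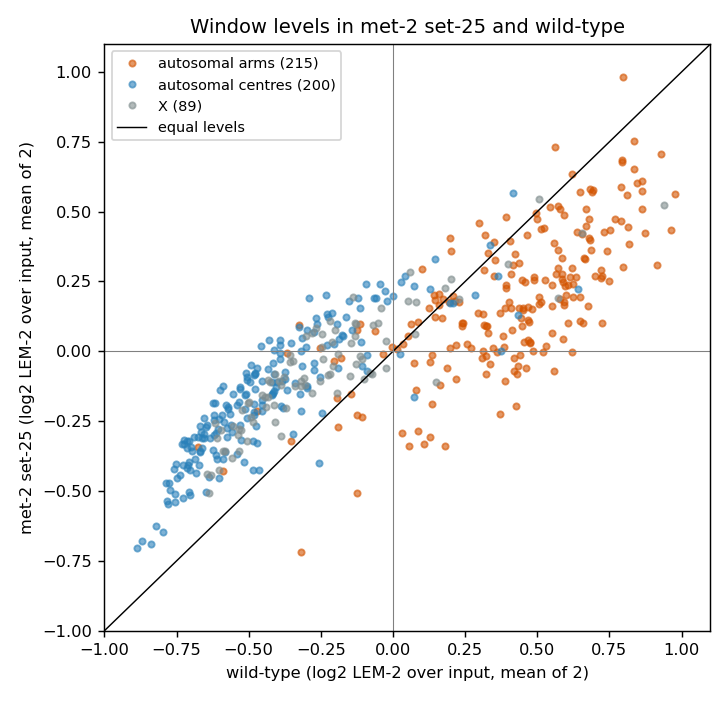
Each point is one of the 504 windows, with its mean log2 LEM-2 over input of 2 libraries in met-2 set-25 on the y axis and in wild-type on the x axis, and the black line marks equal levels. Arm windows lie mostly below the line and centre windows mostly above it, and the SD over windows is 0.286 on the y axis and 0.487 on the x axis.

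Lost contact came in few, long stretches. The 150 lower windows formed 22 runs of neighbouring windows, and 9 runs of at least 5 windows held 124 of them. The longest lay on the right arms of I and V, each 4.2 Mb long. On I from 10.8 to 15 Mb the 21 windows had means of -0.03 and -0.02 in the met-2 set-25 libraries, against 0.39 and 0.33 in the wild-type libraries. Almost the whole right arm of I thus had a mean near the input in both mutant libraries. On V from 16.6 to 20.8 Mb the 21 windows had 0.19 and 0.24 in met-2 set-25, against 0.61 and 0.58 in wild-type, so the fall was of the same size (-0.38 in both stretches) but the wild-type level was higher and the mutant level stayed above the input.

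On the left arms of IV, III and II the longest lower stretches began at 0.8 Mb from the chromosome end. IV from 0.8 to 3.8 Mb had 0.02 and 0.06 in met-2 set-25, against 0.46 and 0.41 in wild-type. III from 0.8 to 3.6 Mb had 0.16 and 0.21 in met-2 set-25, against 0.60 and 0.57 in wild-type. II from 0.8 to 3.6 Mb had 0.05 and 0.09 in met-2 set-25, against 0.44 and 0.40 in wild-type. The stretches on IV and II thus ended close to the input, and the one on III above it. On III 3 further windows from the left end to 0.6 Mb were also lower (mean change -0.27), and under TMM factors all windows from the end to 3.6 Mb were. On I the lower windows reached the left end, and the stretch to 2.6 Mb had 0.14 and 0.17 in met-2 set-25, against 0.64 and 0.53 in wild-type. A further 4 windows from 2.8 to 3.6 Mb on I had 0.03 and 0.08 in met-2 set-25, against 0.42 and 0.33 in wild-type. Mean changes over the 5 stretches whose levels are given ranged from -0.43 to -0.32, both on I, and the 2 libraries of one genotype did not overlap those of the other.

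On the right arms of III, IV and II the longest lower stretches covered 1.2 to 2.4 Mb. III from 11 to 13.4 Mb had 0.18 and 0.23 in met-2 set-25, against 0.57 and 0.48 in wild-type. IV from 15 to 16.6 Mb had 0.49 and 0.53 in met-2 set-25, against 0.69 and 0.80 in wild-type, and of the 10 longest lower stretches it kept the highest level. II from 13.2 to 14.4 Mb had 0.14 and 0.19 in met-2 set-25, against 0.44 and 0.34 in wild-type. Mean changes over these 3 stretches were -0.32, -0.24 and -0.22. Over all lower windows, 136 of the 150 were called lower in each of the 8 fits that left out 1 library.

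Under library totals some arm windows crossed from enriched in wild-type to depleted in met-2 set-25. There were 11, with 5 on the right arm of I, 3 on the left arm of IV and 1 each on the left arms of I, II and X. The largest fall was at I 14.8 to 15 Mb, with -0.18 and -0.21 in met-2 set-25, against 0.44 and 0.42 in wild-type. IV 2.6 to 2.8 Mb had -0.23 and -0.22 in met-2 set-25, against 0.42 and 0.33 in wild-type. These windows fell by 0.62 and 0.60 on the log2 scale (SE 0.10 and 0.06, edgeR adjusted p = 7.3e-05 and 2.32e-06). I 11 to 11.2 Mb had -0.32 and -0.35 in met-2 set-25, against 0.20 and 0.16 in wild-type. I 1.6 to 1.8 Mb had -0.14 and -0.07 in met-2 set-25, against 0.43 and 0.34 in wild-type. IV 3 to 3.2 Mb had -0.33 and -0.29 in met-2 set-25, against 0.16 and 0.10 in wild-type. Each of these 5 windows was called lower in all 8 fits that left out 1 library.

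Fewer windows kept their contact than lost it, and the left arm of V held more kept windows than any other region. A window counted as kept where it was enriched in both genotypes and the 95% interval of its change lay within 0.25 of 0 on the log2 scale. This held for 42 of the 504 windows (8.33%), and 1 of them, V 3.2 to 3.4 Mb, was also called lower. Of the 18 regions, the left arm of V held 16 of its 30 windows as kept, the right arm of IV 5 of 23 and the right arm of II 3 of 17, while both arms of I and the right arm of V held 0. The autosomal arms together held 31 kept windows, the centres 6 and X 5. The longest kept stretch, V 1 to 2.6 Mb with 8 windows, had means of 0.23 and 0.28 in met-2 set-25, against 0.29 and 0.28 in wild-type. V 2.8 to 3.4 Mb had 0.30 and 0.40 in met-2 set-25, against 0.40 and 0.44 in wild-type. V 3.8 to 4.4 Mb had 0.21 and 0.28 in met-2 set-25, against 0.22 and 0.22 in wild-type. The libraries of the 2 genotypes overlapped in each of these 3 stretches, and the mean changes were -0.02, -0.07 and 0.03. The same arm held 7 lower windows, 4 of them in the stretch from 0.2 to 1 Mb, as long as the tenth of the longest lower stretches. It had 0.43 and 0.46 in met-2 set-25, against 0.68 and 0.67 in wild-type (mean change -0.23). Which windows counted as kept depended on the scaling. Under TMM factors there were 34, of which 23 were among the 42, with 10 of 30 on the left arm of V and 0 of 23 on the right arm of IV. Parts of the kept stretches on V were then called lower, at 1 to 1.4, 1.8 to 2.2, 2.8 to 3 and 3.2 to 3.4 Mb. The stretch from 3.8 to 4.4 Mb held no such window.

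**Figure D2:**
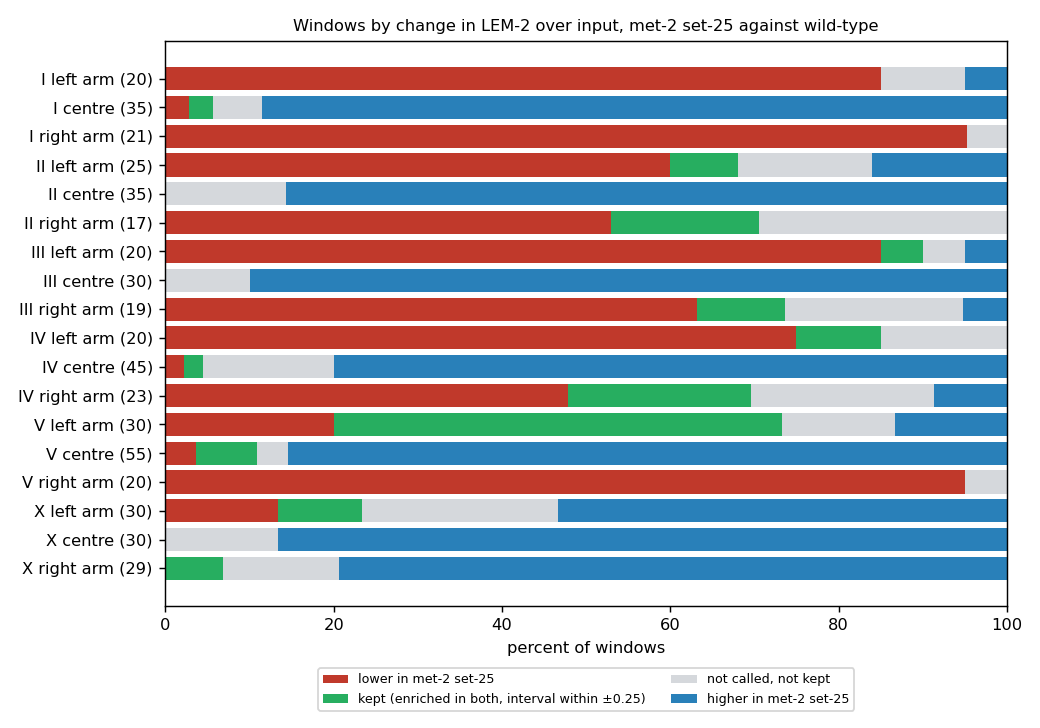
For each of the 18 chromosome regions (number of windows in parentheses) the bar gives the percent of windows that were lower in met-2 set-25 than in wild-type, kept, not called, or higher, and the 1 window both kept and lower is drawn as kept. Lower windows fill most of 8 arms and the left arm of V has 16 of 30 windows kept, while the centres are mostly higher, all under library totals.

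Relative gains under library totals formed stretches of up to 6.6 Mb and lay mainly in the centres and on X. The 249 higher windows formed 32 runs, and 17 runs of at least 5 windows held 225 of them. V 8.8 to 15.4 Mb, with 33 windows, had means of -0.07 and -0.09 in met-2 set-25, against -0.46 and -0.38 in wild-type. I 4.6 to 9.4 Mb had -0.22 and -0.29 in met-2 set-25, against -0.63 and -0.54 in wild-type. Both rose by a like amount (mean change 0.34 and 0.33), but the centre of I stayed well below the input while that of V came close to it. X 12.4 to 16.6 Mb had -0.04 and -0.07 in met-2 set-25, against -0.34 and -0.26 in wild-type. IV 5 to 8.4 Mb had 0.02 and -0.01 in met-2 set-25, against -0.32 and -0.25 in wild-type. The stretch of IV thus reached the level of the input, and that of X stayed slightly below it in both mutant libraries. II 8.4 to 11.6 Mb had -0.20 and -0.25 in met-2 set-25, against -0.58 and -0.52 in wild-type. V 5.4 to 8.6 Mb had 0.01 and 0.03 in met-2 set-25, against -0.30 and -0.26 in wild-type. Of the 249 windows 217 were called higher in each of the 8 fits that left out 1 library. These lengths depended on the scaling. Under TMM factors V 9 to 15.2 Mb remained as 1 run, but no other run of higher windows was longer than 2.8 Mb, and the longest on I, X and IV were 1.8, 2.0 and 1.6 Mb. Runs of at least 5 windows then held 144 higher windows, and those of lower windows held 159 and reached 4.52 Mb.

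Over the genome 38 windows were enriched over input in met-2 set-25 and not in wild-type, and 35 of them were among the higher windows. In wild-type 20 of these 35 were depleted and 15 neither. The largest rise was at III 9.2 to 9.4 Mb, with 0.21 and 0.17 in met-2 set-25, against -0.35 and -0.22 in wild-type. V 13.8 to 14 Mb had 0.17 and 0.23 in met-2 set-25, against -0.29 and -0.18 in wild-type. Their changes were 0.48 and 0.43 (SE 0.07 each, edgeR adjusted p = 4.04e-05 and 5.8e-05). IV 7.2 to 7.4 Mb had 0.11 and 0.07 in met-2 set-25, against -0.37 and -0.28 in wild-type. V 9.8 to 10 Mb had 0.13 and 0.10 in met-2 set-25, against -0.33 and -0.21 in wild-type. V 5.8 to 6 Mb, the innermost window of the left arm of V, had 0.08 and 0.11 in met-2 set-25, against -0.32 and -0.33 in wild-type. In all 5 both mutant libraries lay above the input and both wild-type libraries below it.

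Some windows went against the division into arms and centres. On the autosomal arms 13 windows rose under library totals and 5 under TMM factors. The 6 largest of these rises lay within 0.6 Mb of the inner limit of their arms, at V 5.4 to 6 Mb, II 4.6 to 5 Mb and III 3.8 to 4 Mb. The smaller ones included the left end of II and the right end of IV, so not all rises lay at the border with the centre. V 5.6 to 5.8 Mb had 0.00 and -0.01 in met-2 set-25, against -0.36 and -0.37 in wild-type. II 4.8 to 5 Mb had -0.32 and -0.36 in met-2 set-25, against -0.67 and -0.68 in wild-type. Each of the 6 was depleted in wild-type. In the autosomal centres 4 windows fell under library totals, each touching an arm limit or 1 window from it. Under TMM factors 9 fell, and IV 11 to 11.2 Mb and V 15.4 to 15.8 Mb among them lay farther from a limit. I 10.8 to 11 Mb had 0.02 and -0.01 in met-2 set-25, against 0.40 and 0.35 in wild-type. V 16.8 to 17 Mb had 0.18 and 0.27 in met-2 set-25, against 0.61 and 0.67 in wild-type. Both were enriched in wild-type, and the one on V remained enriched in met-2 set-25. V 16.6 to 16.8 Mb had 0.13 and 0.13 in met-2 set-25, against 0.43 and 0.44 in wild-type. IV 4 to 4.2 Mb had -0.18 and -0.15 in met-2 set-25, against 0.09 and 0.06 in wild-type. The window on V was enriched in both genotypes, and that on IV was neither enriched nor depleted in wild-type and depleted in met-2 set-25.

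An arm profile remained in met-2 set-25. The height of an arm, its mean minus the mean of the centre of its own chromosome, is a difference within a library and needs no scaling between libraries. Wild-type replicate 1 lay above wild-type replicate 2 on all 12 arms, and met-2 set-25 replicate 2 above replicate 1 on all 12. A lower height does not tell a fall of the arm from a rise of the centre. Height was lower in met-2 set-25 on all 12 arms, with no overlap between the libraries of the 2 genotypes, and the difference passed limma's test on 11 (adjusted over the 12 arms). All 10 autosomal arms still stood above their centre in met-2 set-25 by limma's test against 0, with adjusted p at or below 0.00176. What remained of the wild-type height ranged from 22.8% on the right arm of I to 60.3% on the right arm of IV among the autosomes. Over the autosomes arms lay 0.30 and 0.38 above centres in met-2 set-25, against 0.89 and 0.77 in wild-type, which is a ratio of 1.27 against one of 1.78 on the linear scale. The exact two-sided permutation test over libraries gave p = 0.333, the smallest value that 2 against 2 can give.

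**Figure D3:**
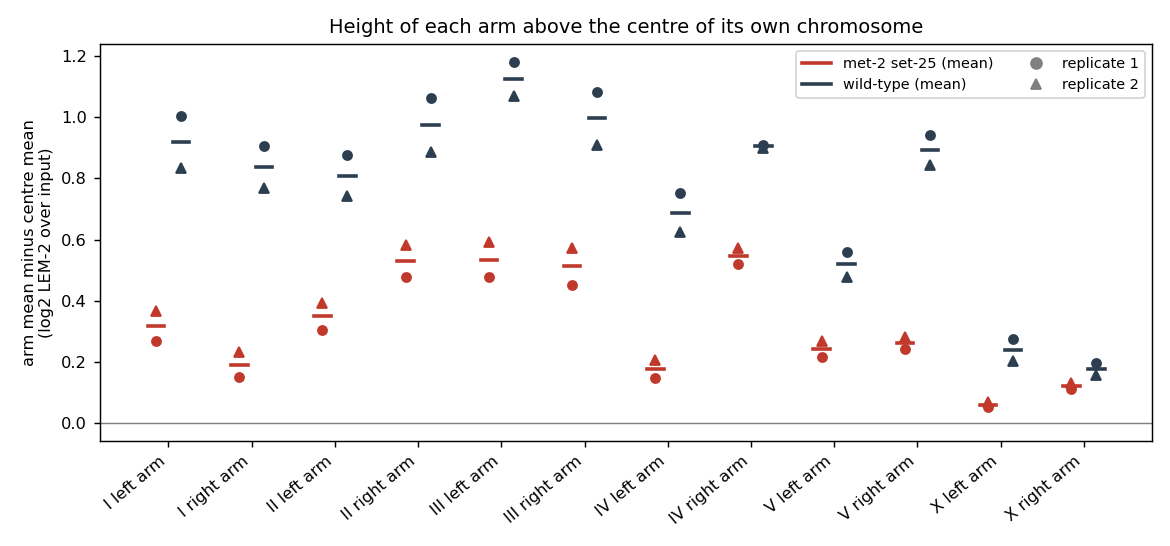
Height of each arm above the centre of its own chromosome (y axis, difference in log2 LEM-2 over input) for met-2 set-25 (red, left of each pair) and wild-type (dark, right), with circles for replicate 1, triangles for replicate 2 and bars for the mean of both. Every met-2 set-25 symbol lies below both wild-type symbols of its arm and above 0, with the right arm of I down to 22.8% of its wild-type height and the right arm of IV at 60.3%.

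Heights differed widely between arms in what was left. The right arm of I had 0.15 and 0.23 in met-2 set-25, against 0.91 and 0.77 in wild-type, and the left arm of I had 0.27 and 0.37 in met-2 set-25, against 1.00 and 0.83 in wild-type. On IV the left arm had 0.15 and 0.21 in met-2 set-25, against 0.75 and 0.63 in wild-type. On V the right arm had 0.24 and 0.28 in met-2 set-25, against 0.94 and 0.85 in wild-type. These 4 arms retained between 22.8% and 34.5% of their height. The right arm of IV had 0.52 and 0.57 in met-2 set-25, against 0.91 and 0.90 in wild-type. On II it had 0.48 and 0.58 in met-2 set-25, against 1.06 and 0.89 in wild-type. On III it had 0.45 and 0.57 in met-2 set-25, against 1.08 and 0.91 in wild-type. These right arms retained between 51.3% and 60.3%. The left arms of II, III and V lay between, with 43.1%, 47.5% and 46.5%. On the arms the differences ran from -0.65 on the right arm of I to -0.28 on the left arm of V (SE between 0.07 and 0.08, limma adjusted p = 1.3e-07 and 0.000571, n = 2 against 2 libraries). Without met-2 set-25 replicate 2 the remaining height of the right arm of I (0.15) and of the left arm of IV (0.15) no longer passed the test against 0 (limma adjusted p = 0.0883 for each).

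Some arms lost more or less than the others in log2 units, which is not the same as the share of the wild-type height that they lost. For each autosomal arm the change of its height was compared with the mean of the other 9, over libraries. The left arm of V lay 0.12 and 0.15 below the others in met-2 set-25 and 0.41 and 0.37 below them in wild-type. Its height thus changed less than theirs, by 0.25 (SE 0.03, limma adjusted p = 0.00137 over the 10 arms), and it passed under every alternative tried (0.22 to 0.27). This arm was also the lowest of the autosomal arms in wild-type by height, and it retained 46.5% of that height. Its mean level over input was 0.20 and 0.25 in met-2 set-25, against 0.24 and 0.23 in wild-type, a change of -0.01 (interval -0.10 to 0.08) under library totals. Under TMM factors the change was -0.11 (limma adjusted p = 0.0226), so whether this arm fell depended on the scaling, while its difference from the other arms did not.

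The other 4 arms that passed this test did so less firmly. The right arm of IV stood 0.22 and 0.18 above the others in met-2 set-25, against -0.02 and 0.11 in wild-type, and thus changed less, by 0.16 (limma adjusted p = 0.0341). The right arm of I lay at -0.20 and -0.19 in met-2 set-25, against -0.02 and -0.04 in wild-type, and thus changed more, by -0.16 (limma adjusted p = 0.0191). Changes in log2 units were also greater on the left arms of I (-0.11) and III (-0.10) than on the others (limma adjusted p = 0.0239 for each). All 4 kept their direction under the alternatives tried. By share of its wild-type height, though, the left arm of III retained 47.5%, near the 46.5% of the left arm of V. Without met-2 set-25 replicate 1, met-2 set-25 replicate 2 or wild-type replicate 1, none of the 4 passed the test, and without wild-type replicate 2 the left arm of III did not.

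The profile along the arms was lower at every distance from the chromosome end. Values were averaged over the 10 autosomal chromosome ends, in bins of 0.5 Mb set by distance alone. The bins from 3 to 4 Mb on the right of II, and from 3.5 to 4 Mb on the right of III, therefore included centre windows. Height above the own centre in the outermost bin was 0.50 and 0.54 in met-2 set-25, against 1.06 and 0.81 in wild-type. From 1.5 to 2 Mb it was 0.32 and 0.41 in met-2 set-25, against 1.02 and 0.92 in wild-type. From 3.5 to 4 Mb it was 0.13 and 0.20 in met-2 set-25, against 0.56 and 0.48 in wild-type. Thus met-2 set-25 embryos had their highest bins at the end and lower ones inward, while the wild-type libraries stayed between 0.81 and 1.08 over the outermost 2.5 Mb. All 8 bins were lower by limma (differences of -0.61 to -0.35, SE 0.07, largest adjusted p = 2.03e-05), and all 8 remained above 0. The percent of the wild-type height that remained was 56.1 in the outermost bin (47.3 to 67.5 over pairings of libraries). In the next bin it was 50.6 (44.3 to 57.6). Farther inward it was 37.3 from 1.5 to 2 Mb, 41.0 from 2 to 2.5 Mb, 30.5 from 3 to 3.5 Mb and 31.8 from 3.5 to 4 Mb.

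Set against the mean of the other bins, a test chosen after the profile was seen, the bins from 1 to 1.5 and from 1.5 to 2 Mb lost more (-0.11 each, SE 0.02, limma adjusted p = 0.00105 for each). The bin from 3.5 to 4 Mb was lowest in wild-type and in part centre on II and III, and only 31.8% of its height remained. In log2 units it lost less (0.18, limma adjusted p = 0.000356). The outermost bin had 0.12 in the same direction and did not pass (limma adjusted p = 0.0578). From 2 to 2.5 Mb the value was -0.06 (limma adjusted p = 0.0278), and the call was lost without either met-2 set-25 replicate or without wild-type replicate 2.

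**Figure D4:**
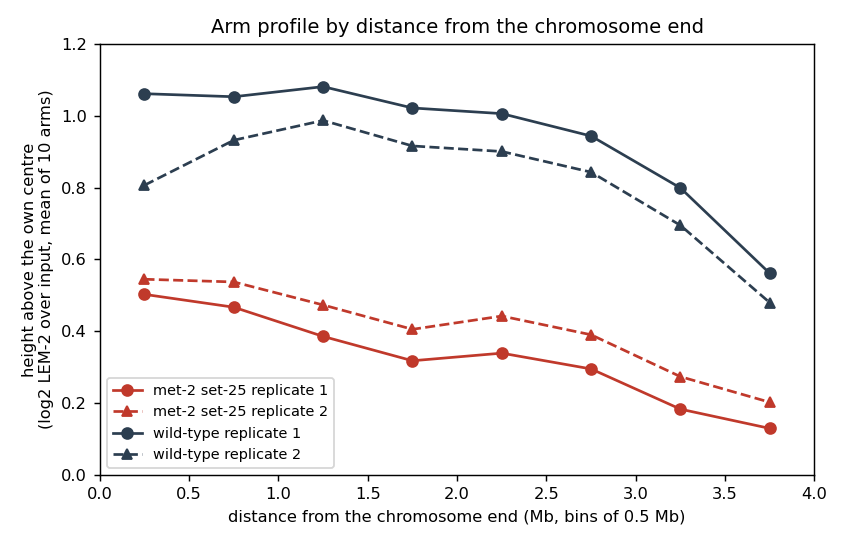
Height above the own centre (y axis, difference in log2 LEM-2 over input, mean over 10 autosomal chromosome ends) by distance from the chromosome end (x axis, Mb, bins of 0.5 Mb), with 1 line per library for met-2 set-25 (red) and wild-type (dark). The innermost bins include centre windows on the right of II and III. The met-2 set-25 lines run below the wild-type lines at every distance, at 0.50 and 0.54 in the outermost bin and 0.13 and 0.20 in the innermost.

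Single arms differed in how their slope changed. Slope here is the mean of the outer windows minus the mean of the inner windows of an arm, divided at its midpoint. The left arm of I had 0.24 and 0.21 in met-2 set-25, against 0.42 and 0.40 in wild-type. That of II had 0.24 and 0.23 in met-2 set-25, against 0.44 and 0.40 in wild-type. That of V had 0.19 and 0.16 in met-2 set-25, against 0.35 and 0.33 in wild-type. These 3 slopes became flatter (-0.19, -0.19 and -0.17, SE 0.03, limma adjusted p = 2.23e-06, 2.23e-06 and 1.37e-05 over the 10 arms). The right arms of I and III also had lower slopes, by -0.12 each. A steeper slope was found on the left arm of IV, with 0.30 and 0.30 in met-2 set-25 against 0.18 and 0.13 in wild-type (difference 0.14, limma adjusted p = 9.77e-05). The right arms of II (0.09) and V (0.07) became steeper too, and the left arm of III (0.04) and the right arm of IV (-0.06) did not pass the test.

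These slopes depended on where the arms were taken to end. With the arm limits moved 0.6 Mb toward the centre, 7 slopes were lower and 0 higher, and with limits moved 0.6 Mb toward the ends 3 were lower and 3 higher. With medians over windows the left arms of I (-0.04) and V (-0.05) no longer passed. In met-2 set-25 9 of the 10 arms kept a slope above 0 by limma's test, and the right arm of I had one below 0 (-0.09 and -0.11).

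Changes at the chromosome ends were mixed. Of the 10 end windows of the autosomes 2 were lower, 2 higher and 6 not called, while of the other 205 arm windows 140 were lower, 11 higher and 54 not called. The median change was -0.10 in the end windows and -0.25 in the other arm windows, a difference that was not tested. The right end of IV had 0.99 and 0.97 in met-2 set-25, against 0.87 and 0.73 in wild-type, and was 1 of the 2 that were higher (0.19, edgeR adjusted p = 0.0399). The left end of I had 0.11 and 0.11 in met-2 set-25, against 0.79 and 0.51 in wild-type (-0.54). Wild-type replicate 1 lay above wild-type replicate 2 in all 10 end windows, with a median gap of 0.255, against 0.0618 in the other arm windows, and its part in these counts was not tested. Both higher calls were lost in 5 of the 8 fits that left out 1 library (LEM-2 wild-type replicate 2, input wild-type replicate 2, input met-2 set-25 replicate 1 or either LEM-2 met-2 set-25 library), in which 2 to 4 end windows were lower. Under TMM factors 5 end windows were lower and 0 higher. On X the left end, with 0.52 and 0.53 in met-2 set-25 against 0.96 and 0.92 in wild-type, was lower (-0.41), while its right end, with 0.59 and 0.50 in met-2 set-25 against 0.51 and 0.50 in wild-type, was kept.

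**Figure D5:**
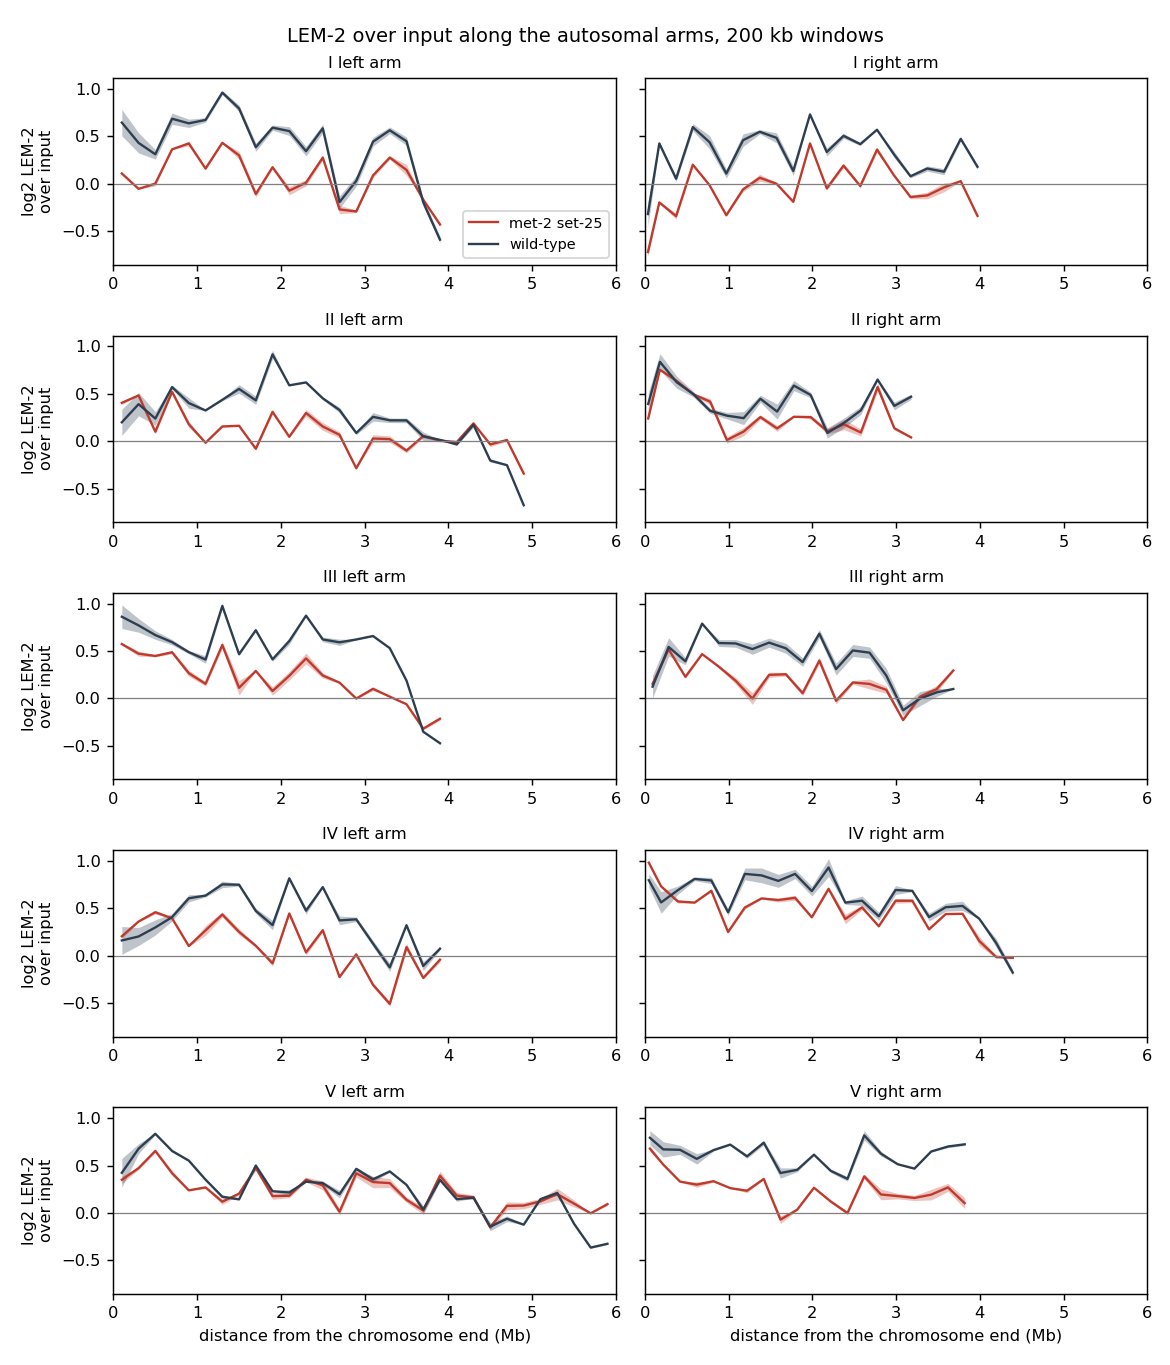
Log2 LEM-2 over input (y axis) of each 200 kb window along the 10 autosomal arms, by distance from the chromosome end (x axis, Mb), for met-2 set-25 (red) and wild-type (dark), with the mean as a line and the range of the 2 libraries as a band. The lines part most on the arms of I and on the right arm of V, run together over much of the left arm of V, and share many local peaks and dips.

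The fine pattern along the arms was retained in part. Across the 215 autosomal arm windows, Pearson's r of the level between a met-2 set-25 and a wild-type library was 0.700 to 0.727 over the 4 pairings. Between replicates it was 0.987 in met-2 set-25 and 0.967 in wild-type. After the mean over 5 neighbouring windows was subtracted, which leaves differences between close neighbours, r was 0.816 to 0.830 between genotypes, against 0.980 and 0.973 between replicates of met-2 set-25 and of wild-type. In the 200 centre windows r of the level was 0.818 to 0.881. Neighbouring windows share their surroundings and base composition and each library enters more than 1 pairing, so these values are a description. The SD over arm windows was 0.256 in met-2 set-25 and 0.304 in wild-type.

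Enriched windows, as called under library totals, lay in more and shorter runs in met-2 set-25. The 189 enriched windows of met-2 set-25 formed 65 runs with a median of 0.4 Mb, 31 of them a single window, while the 204 of wild-type formed 27 runs with a median of 0.6 Mb, 7 of them a single window. The longest run in met-2 set-25 covered the right arm of IV from 13.4 Mb to its end at 17.49 Mb, with means of 0.50 and 0.53 in met-2 set-25, against 0.63 and 0.69 in wild-type. The next was the left end of V to 2.6 Mb, with 0.31 and 0.34 in met-2 set-25, against 0.43 and 0.40 in wild-type. These were 2 of the arms whose heights changed less than the mean of the others.

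On X, where wild-type arms rise little above the centre, only the left arm was called lower in height. On its left arm the height was 0.05 and 0.07 in met-2 set-25, against 0.27 and 0.20 in wild-type, a difference of -0.18 (limma adjusted p = 0.0127). That call was lost without either met-2 set-25 replicate (limma adjusted p = 0.0956 and 0.0702), and the remaining height of 0.06 did not pass the test against 0 (limma adjusted p = 0.212). On its right arm the height was 0.11 and 0.13 in met-2 set-25, against 0.20 and 0.16 in wild-type. That difference of -0.06 (interval -0.19 to 0.08) did not pass. The remaining height of the right arm, 0.12 or 68.2% of that in wild-type, passed the test against 0 (limma adjusted p = 0.0166), less firmly than the autosomal arms. Of the 89 windows of X 65 were higher in met-2 set-25, 4 lower and 5 kept, and under TMM factors 42 were higher and 8 lower.

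Against the cec-4 mutant, which lacks a perinuclear reader of methylated lysine 9, only the height of the right arm of V passed the test among the 12 arms. That arm had 0.24 and 0.28 in met-2 set-25, against 0.03 and -0.12 in cec-4, a difference of 0.30 (SE 0.07, limma adjusted p = 0.00396). Without met-2 set-25 replicate 2 or cec-4 replicate 2 the call was lost (limma adjusted p = 0.0856 and 0.192). On the right arm of I, with 0.15 and 0.23 in met-2 set-25 against 0.01 and -0.01 in cec-4, the difference of 0.19 did not pass (interval 0.05 to 0.33 before adjustment, limma adjusted p = 0.0725).

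In the input libraries the arms lay slightly below the centres. Arm minus centre of the input counts was -0.14 and -0.13 in met-2 set-25, against -0.15 and -0.14 in wild-type. By edgeR 0 of the 504 windows (0%) differed between these inputs, with 0 at an unadjusted p under 0.05. In a fit of the 6 inputs alone 0 windows passed and 18 had an unadjusted p under 0.05. The DESeq2 Wald test, which was also fitted over all 12 libraries, called 0.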

How the data were processed

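LEM-2 chromatin immunoprecipitation and input libraries were sequenced as pairs after 15 cycles of PCR without molecular identifiers, per the labels' protocols, so counting errors here cover counting only. The authors deposited raw counts per 200 kb window, 1 column per library, for 504 windows, and 0 columns were left unmapped. The authors' deposited log2 values are a rescaling of these counts and were not used in tests. The submitters' processing notes name Bowtie. The sources used here give neither its version, nor the genome build, nor whether both reads of a pair were counted.

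Windows were tested on the counts with edgeR 4.0.16 (R 4.3.3; glmQLFit, glmQLFTest) in 1 fit of 12 libraries, with a mean per group, library totals as scaling and Benjamini-Hochberg adjustment over 504 windows at 0.05. The contrast was LEM-2 minus input in met-2 set-25, minus the same in wild-type. Arm values are means over windows of log2 of CPM plus 1, LEM-2 minus input, tested with limma 3.58.1 over library pairs. Limma draws the variances of arms toward a common value, which 2 libraries a group can hardly test, and arms of 1 library are not independent, so its p-values may be too small. On simulated counts for this comparison of 504 windows, edgeR called 99% of windows changed by 0.4 (log2), 78% of those changed by 0.2 and 2.30% of 304 unchanged ones. Simulated windows were drawn independently from the fitted dispersions, the same for LEM-2 and input libraries, with as many rises as falls. These rates therefore do not cover shifts shared by neighbouring windows, the unlike spread of LEM-2 and input libraries or the choice of scaling. They are no measure of error in the data. Alternatives were other scalings (TMM, DESeq2 1.42.0), filters, pseudocounts, inputs, arm limits, variances, a replicate block and leaving out each library.

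Left arms end and right arms begin at 4 and 11 Mb on I, 5 and 12 on II, 4 and 10 on III, 4 and 13 on IV, 6 and 17 on V, and 6 and 12 on X, limits taken over from an earlier analysis of these data. Named were the 10 longest lower and 6 longest higher runs (ties by the larger mean change), kept runs of at least 3 windows, the 6 largest rises on autosomal arms, all falls in autosomal centres, the 5 largest falls from enriched to depleted and the 5 largest rises to newly enriched. End windows and enriched runs were described outside that rule, after their values were seen. The comparison, limits, lists and naming rule were chosen with earlier results of these data known.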

Additional observations from a re-analysis of the deposited data

How the results depend on the processing

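Conclusions are limited by 2 libraries per group, by relative scaling and by windows of 200 kb, in which narrow changes are averaged. Of the alternatives tried, DESeq2 size factors moved a count of changed windows by over 1.5 times, with 153 higher windows against 249. Over the fits that left out 1 library the total ranged from 360 to 404 windows. The count of arms that differed from the others was 2 with each arm's own variance, 3 with the replicate block, 3 with limits moved toward the centre and 1 to 4 without 1 library pair. The count of arms that differed from cec-4 was 2 with the mean of all 6 inputs, 0 with its own variance, 2 with limits moved toward the ends and 0 to 1 without 1 library pair.

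Direction turned for 6 values, none of them called in the reported fit but for 2 slopes. The left arm of X changed by -0.0218 under TMM factors. On the left arm of V the change was 0.0142 with limits toward the centre, and 0.0152 and -0.0400 in the fits that left out met-2 set-25 replicate 1 and 2. Among slopes, that of the right arm of III was 0.0193 with limits toward the ends, and with limits toward the centre that of II (right) was -0.0478 and that of III (left) was -0.107. A further 54 values lost their call and 9 gained one, while 910 kept direction and side of the threshold. The cause was not tested.

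The labels do not say that a replicate number marks a shared batch, and it was not taken as pairing libraries. The change from replicate 1 to 2 correlated at -0.55 between LEM-2 in met-2 set-25 and in wild-type and at 0.30 between LEM-2 and input in met-2 set-25. With the replicate block 401 windows were called, 150 lower and 251 higher, and 11 arm heights. With the wild-type numbers crossed, an alternative chosen after seeing the data, 410 were called, 152 lower and 258 higher. A filter on a mean of at least 10000 counts left 502 windows.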
